A study of Mus musculus with 6 samples.

Results

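The CC chemokine ligands Ccl2, Ccl3, Ccl4, Ccl5, Ccl6, Ccl7, Ccl9, Ccl12, Ccl22 and Ccl24 were followed in cultured bone marrow cells of mice with and without a Swedish mutant APP transgene. They were taken by gene symbol as a list of 10, out of 19 genes with a Ccl symbol and 17469 genes in the table. Of the 10 ligands, 9 had enough counts to be tested, 6 rose, 1 fell, and Ccl6 and Ccl9 did not pass the fold threshold. The 6 that rose were Ccl2, Ccl7, Ccl12, Ccl3, Ccl4 and Ccl5, which stood between 5.15-fold (Ccl4) and 9.80-fold (Ccl5) higher in mean FPKM (fragments scaled to transcript length and to the fragments mapped in a library, so that genes can be compared). The 1 that fell was Ccl24, with 72 counts over the control libraries and 5 over the transgenic ones.

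CC chemokines are small secreted proteins, named for a pair of adjacent cysteines near the N terminus, which bind G protein-coupled receptors and draw leukocytes along a gradient. The receptors divide them by role: Ccl2, Ccl7 and Ccl12 act on CCR2 and recruit monocytes, Ccl3, Ccl4 and Ccl5 recruit macrophages, T cells and NK cells, Ccl24 (eotaxin-2) acts on CCR3 of eosinophils, and Ccl22 acts on CCR4 of T cells. Ccl6 and Ccl9 are rodent CCR1 ligands with a long N terminus that macrophages and osteoclasts make. In bone, several of these ligands are known to draw osteoclast precursors.

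The control group consisted of 3 libraries from Ocn-Cre;Ai9 mice and the second group of 3 libraries from TgAPPswe;Ocn-Cre;Ai9 mice, all 6 months old and without treatment. Ocn-Cre is a recombinase driven by the osteocalcin promoter, Ai9 is a reporter that turns on tdTomato once Cre has cut out a stop cassette, and TgAPPswe carries human APP with the Swedish mutation behind a stop cassette that Cre also removes, so the groups share Cre and reporter and differ in the transgene. Marrow from the long bones was cultured and passaged as bone marrow stromal cells (BMSCs), and tdTomato-positive cells were sorted before RNA was extracted. The number of mice behind a library was not given in the sources used here, so that p-values measure the spread between libraries, and Ocn-Cre is also known to be active outside bone.

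Each control library held between 19340810 and 19801060 estimated counts, and each TgAPPswe library between 21677461 and 22037840. At this depth 3 counts correspond to 0.136 to 0.155 CPM (counts scaled to a common library total). The transgene is human APP, and the table lists mouse App, which was higher in the TgAPPswe libraries (FPKM 279 ± 3.50 against 330 ± 4.18, SD, n = 3; log2 fold change 0.45). Markers of macrophages and monocytes were abundant, with a summed FPKM over 12 genes of 16473 to 17258 in controls and 13941 to 17733 in TgAPPswe. The 12 stromal and osteoblast markers summed to 140 to 163 and 104 to 173, and the osteocalcin genes, which define the labelled lineage, were low, with Bglap at 0.857 ± 0.461 and 0.273 ± 0.250 FPKM and Bglap2 at 1.03 ± 0.98 and 1.72 ± 0.521 (SD, n = 3). Counts of both were fractional in 4 libraries and the groups overlapped for each. In the bulk libraries, fewer cells of a type and less RNA per cell cannot be told apart.

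Differences were tested with edgeR's quasi-likelihood test over 12701 genes, and a gene was called at a Benjamini-Hochberg adjusted p of 0.05 or less together with a log2 fold change of 1 or beyond in either direction. By this rule 8.90% of all tested genes were called up and 9.20% called down, 1130 and 1169 genes. The balance moved with the scaling, to 846 up and 1732 down with library size only. In limma on log2(FPKM + 0.1), which differs in test and input as well, it was 811 up and 1510 down. Among the ligands, 6 of the 9 tested were called up and 1 was called down, and the median of the log2 fold changes was 2.64 for the 9 beside -0.02 for all genes. Without the fold threshold, 32.5% of all genes were higher and 31.5% lower, and 7 ligands were higher and 2 lower. The FPKM of the groups did not overlap for 6 ligands that were higher and for Ccl6 and Ccl24, which were lower, beside 24.0% and 48.3% of all tested genes in the same directions. The fit also scaled each library by a factor (TMM), of 1.07 to 1.08 in controls and 0.91 to 0.94 in TgAPPswe. FPKM lacks this factor, so TgAPPswe stands lower beside controls in FPKM than in the edgeR log2 fold changes. The 6 ligands called up had edgeR adjusted p values of 1.33e-07 to 1.88e-05, and Ccl24, called down, had 0.000722.

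**Figure D1:**
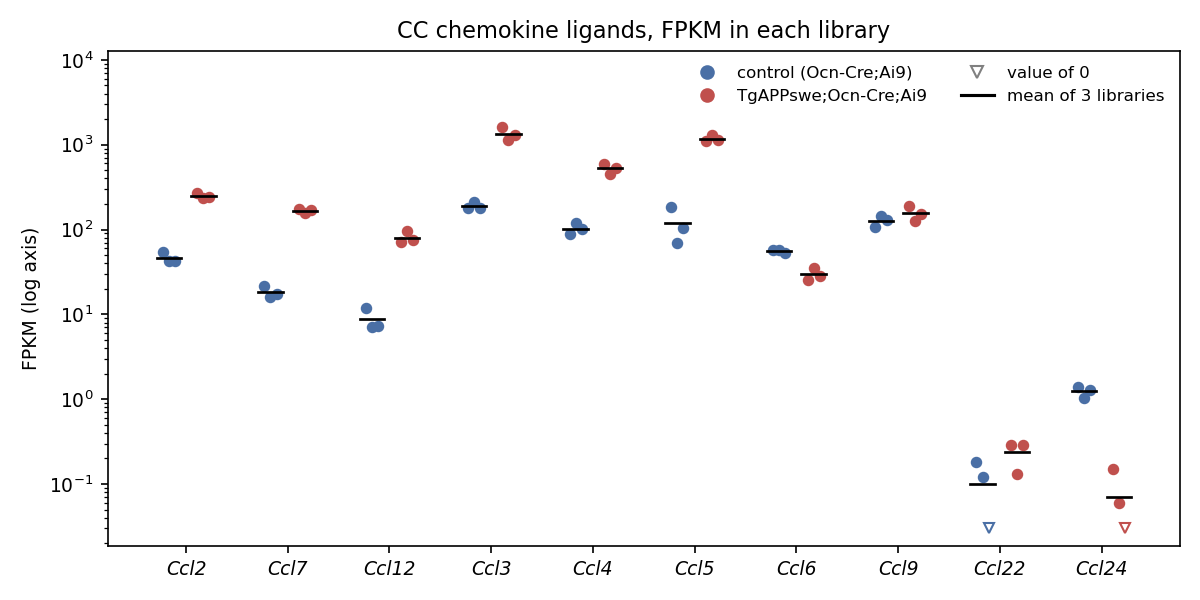
FPKM (log axis) of the 10 CC chemokine ligands in each of the 3 control and 3 TgAPPswe libraries, with black bars at the group means and open triangles for values of 0. The points of the groups lie apart for Ccl2, Ccl7, Ccl12, Ccl3, Ccl4, Ccl5, Ccl6 and Ccl24, and overlap for Ccl9 and Ccl22.

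The members lie on 3 chromosomes. In GENCODE M21 on GRCm38, the build named mm10 in the submitters' processing notes, the CCR2 ligands lie in 1 run on chromosome 11: Ccl2 at chr11:82035571-82037453, Ccl7 at chr11:82045712-82047525 and Ccl12 at chr11:82101845-82103400, all on the plus strand. The second run on the same chromosome holds Ccl5 at chr11:83525778-83530518, Ccl9 at chr11:83572919-83578636, Ccl6 at chr11:83587882-83593087 and Ccl3 at chr11:83647844-83649355 on the minus strand, and Ccl4 at chr11:83662584-83664683 on the plus strand. Ccl22 lies at chr8:94745590-94751699 on the plus strand and Ccl24 at chr5:135569937-135573049 on the minus strand. Ccl2 overlaps Gm17268 and Ccl6 overlaps E230016K23Rik, each annotated on the opposite strand and neither of them in the table. Whether counting used strand was not given in the sources used here, so reads of such partners cannot be told apart.

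Short-lived chemokine mRNAs often carry AU-rich elements in the 3′ UTR, where proteins of the Zfp36 family bind and speed decay. The 7-base core TATTTAT was looked for in the sense strand of the annotated 3′ UTR of each ligand, and the sites found are given with the core in capitals, as 3 of them belong to ligands that rose.
Ccl12 3′ UTR site: gggcagtgtgaTATTTATtatgatatcta
Ccl3 3′ UTR site: gtatttgtgacTATTTATtctgaaagact
Ccl4 3′ UTR site: attatttctatTATTTATgttttagttat
Ccl22 3′ UTR site: agctatagttaTATTTATataggaaagag

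These 4 of 10 ligands held the core, as did 30.5% of 12410 tested genes with an annotated 3′ UTR. Among UTRs within 20% of the same length the core stood in 5.83% for Ccl12, 10.1% for Ccl3, 8.42% for Ccl4 and 37.6% for Ccl22. The core began 55, 233, 172 and 944 bases after the stop codon in Ccl12, Ccl3, Ccl4 and Ccl22. The shorter ATTTA, which the core contains, occurred 5 times each in the 167 bases of the Ccl12 UTR and the 409 bases of the Ccl3 UTR, and 0 times in those of Ccl5 and Ccl24. It also occurred 5 times in the 2465 bases of the Ccl9 UTR and 4 times in the 943 bases of the Ccl6 UTR. In the UTRs of Ccl7, Ccl4 and Ccl22 it occurred 2 times each, and in that of Ccl2 1 time. So 3 of the 6 ligands that rose carried the core, and Ccl2, Ccl7 and Ccl5 rose without these letters in the annotated UTR.

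The RefSeq promoter table (GRCm38.p6) held 5 of the 10 ligands, Ccl12, Ccl3, Ccl6, Ccl9 and Ccl22, and did not list Ccl2, Ccl4, Ccl5, Ccl7 and Ccl24. The 250 bases before the start of a ligand from the first run and of neighbours from the second that differed in response are shown, with matches to the NF-kB consensus on either strand, or to the TATA box (TATAAA) on the strand of the gene alone, in capitals.
Ccl12 promoter, chr11:82101595-82101844, plus strand: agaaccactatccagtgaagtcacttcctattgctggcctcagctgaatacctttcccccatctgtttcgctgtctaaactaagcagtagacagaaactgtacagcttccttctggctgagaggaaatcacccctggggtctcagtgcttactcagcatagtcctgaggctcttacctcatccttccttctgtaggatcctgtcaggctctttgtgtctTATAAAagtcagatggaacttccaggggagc
Ccl3 promoter, chr11:83649379-83649628, minus strand: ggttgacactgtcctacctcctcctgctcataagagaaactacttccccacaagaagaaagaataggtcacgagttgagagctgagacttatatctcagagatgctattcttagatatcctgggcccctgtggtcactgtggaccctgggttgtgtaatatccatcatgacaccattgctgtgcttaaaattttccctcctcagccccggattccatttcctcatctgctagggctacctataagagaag
Ccl9 promoter, chr11:83578637-83578886, minus strand: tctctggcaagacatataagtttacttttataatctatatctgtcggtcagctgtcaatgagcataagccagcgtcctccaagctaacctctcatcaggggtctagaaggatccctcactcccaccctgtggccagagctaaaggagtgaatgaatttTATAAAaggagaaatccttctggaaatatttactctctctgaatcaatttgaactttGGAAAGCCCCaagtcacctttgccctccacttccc
Ccl6 promoter, chr11:83593088-83593337, minus strand: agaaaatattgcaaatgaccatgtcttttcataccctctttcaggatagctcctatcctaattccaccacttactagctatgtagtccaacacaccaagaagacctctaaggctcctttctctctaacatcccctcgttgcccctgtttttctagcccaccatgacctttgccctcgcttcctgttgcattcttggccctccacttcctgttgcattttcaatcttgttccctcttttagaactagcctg

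The NF-kB consensus matched in 1 of the 5 ligand promoters, that of Ccl9, beside 3.90% of 32851 promoters, and the TATA box in those of Ccl12 and Ccl9, beside 7.59%. On either strand, an AP-1 motif (TGANTCA) matched in the Ccl9 promoter (6.75% of all), not overlapping the capitals. No match to a STAT6 motif (TTCNNNNGAA, 5.85%) or a CEBP motif (TTGCNNAA, 9.56%) was found in the 5. A missing match says only that these letters are not in this window. Ccl9, with the most matches, was not called, and the promoters of Ccl12 and Ccl3, which rose, held 1 TATA box between them.

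The CCR2 ligands rose together. Ccl2 (MCP-1), the main monocyte attractant of this family, stood at 53.73, 42.10 and 42.93 FPKM in control replicates 1 to 3 and at 270.15, 234.30 and 238.70 in TgAPPswe replicates 1 to 3. Every TgAPPswe library exceeded every control library. The log2 fold change was 2.64 (SE 0.114, edgeR adjusted p = 3.80e-07), from a mean of 46.3 ± 6.49 to 248 ± 19.6 FPKM (SD, n = 3).

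Ccl7 (MCP-3) was at 21.85, 16.15 and 17.31 FPKM in the controls and at 173.90, 158.31 and 168.23 in TgAPPswe. The spread within a group was small beside the gap, with coefficients of variation of 16.3% and 4.73%. Its log2 fold change was 3.39 (SE 0.114, edgeR adjusted p = 1.33e-07). Ccl12 (MCP-5), which mice make beside Ccl2, was at 11.96, 7.15 and 7.20 FPKM in the controls and 71.66, 94.94 and 74.78 in TgAPPswe, a log2 fold change of 3.41 (SE 0.191, edgeR adjusted p = 1.52e-06). Control replicate 1 held the highest level of all 3 genes among the controls. Ccl12 was the least abundant of the 3 in each library.

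Ccl3, Ccl4 and Ccl5 rose as well and were the most abundant ligands of the transgenic cells. Ccl3 (MIP-1α) stood at 179.17, 211.17 and 181.51 FPKM in controls and 1599.69, 1122.91 and 1314.06 in TgAPPswe, a change from 191 ± 17.8 to 1346 ± 240 (SD, n = 3). The log2 fold change was 3.04 (SE 0.146, edgeR adjusted p = 6.78e-07). By mean FPKM Ccl3 went from rank 386 to rank 29 among all 17469 genes, the highest place of any member.

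Ccl4 (MIP-1β), which lies 13.2 kb from Ccl3, stood at 87.36, 118.67 and 100.59 FPKM in controls and 598.01, 455.59 and 525.68 in TgAPPswe. Its log2 fold change was 2.54 (SE 0.141, edgeR adjusted p = 1.47e-06). In each group the library with the highest Ccl3 also had the highest Ccl4, control replicate 2 and TgAPPswe replicate 1.

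Ccl5 (RANTES), known from T cells and NK cells as well as from activated macrophages, stood at 185.75, 69.72 and 104.97 FPKM in controls and 1107.97, 1290.50 and 1133.68 in TgAPPswe. The controls were uneven, with the highest 2.66 times the lowest and a coefficient of variation of 49.5%, while that of TgAPPswe was 8.39%. The log2 fold change of 3.51 was the greatest rise among the 9 tested ligands and had the greatest SE of the 6 that rose, 0.308 (edgeR adjusted p = 1.88e-05). It was 3.96 without control replicate 1 and 3.23 without control replicate 2, where Ccl7 (3.30) and Ccl12 (3.28) stood above it. Its rank by mean FPKM went from 640 to 37. The T cell markers in the table, Cd3d, Cd3e and Cd2, and the NK cell markers Klrb1c, Prf1 and Eomes held at most 3 counts in each library, so the defining genes of both cell types were at or near 0.

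Ccl6 and Ccl9, the CCR1 ligands with a long N terminus, did not follow the others. Ccl6 was at 57.14, 56.71 and 52.48 FPKM in controls and 25.43, 35.01 and 28.02 in TgAPPswe, and every TgAPPswe library was below every control. The control mean was 1.88 times the TgAPPswe mean in FPKM, without TMM scaling. With TMM scaling, the log2 fold change of -0.70 (SE 0.102, edgeR adjusted p = 0.000382) passed the p threshold without reaching the fold threshold. Ccl9 was at 107.54, 142.92 and 128.21 FPKM in controls and 191.50, 125.02 and 153.70 in TgAPPswe, and the groups overlapped. Its log2 fold change was 0.53 (SE 0.164, edgeR adjusted p = 0.0197), while an exact two-sided permutation test of its FPKM over the 6 libraries gave p = 0.3. The adjusted p of Ccl9 ranged from 0.00228 to 0.204 over the alternatives. Its counts were fractional in all 6 libraries, which marks reads divided between genes or transcripts by the estimate, so its level is less certain than those of the others.

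Ccl24 was the called ligand that went the other way. It held 28, 21 and 23 counts in controls and 4, 1 and 0 in TgAPPswe, or 1.41, 1.04 and 1.27 FPKM against 0.15, 0.06 and 0. The groups did not overlap, and the scaled rate was 13.8 times higher in controls (95% exact counting interval 5.67 to 43.9, which covers counting error only). The fitted log2 fold change was -3.70 (SE 0.603, edgeR adjusted p = 0.000722), and it ran from -5.23 to -1.07 over the alternatives. Ccl24 passed the filter on low counts through the control group alone, so that only a fall could be called for it.

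Ccl22, a CCR4 ligand of macrophages and dendritic cells, had too few counts to test. It held 6, 4 and 0 counts in controls and 11, 5 and 11 in TgAPPswe, and the groups overlapped. The scaled rate was 2.81 times higher in TgAPPswe (95% exact counting interval 1.32 to 6.5, for counting error only), and the exact permutation test of the FPKM values gave p = 0.2. For every member whose groups did not overlap this test gave 0.1, the smallest p that 3 against 3 libraries allow.

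**Figure D2:**
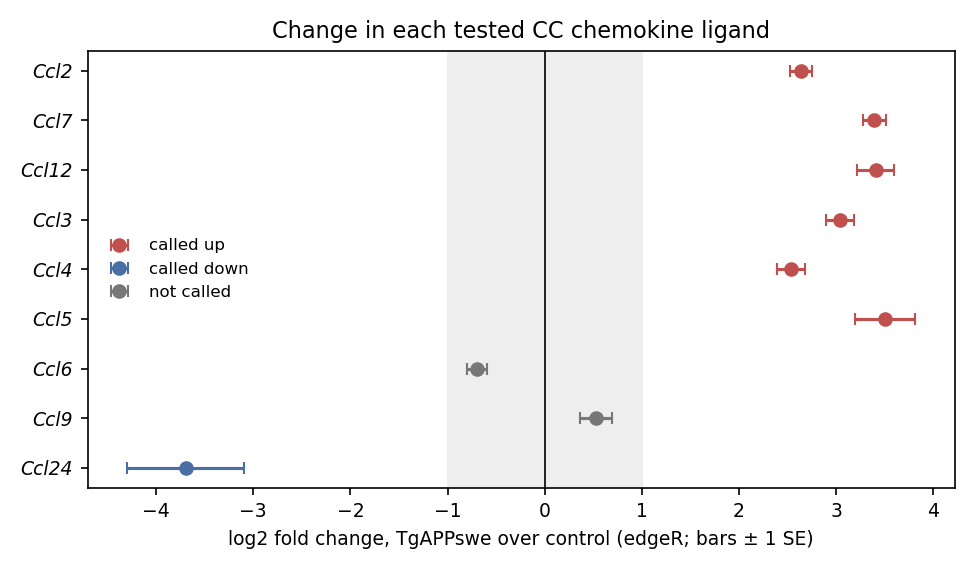
log2 fold change (TgAPPswe over control, edgeR) of the 9 tested CC chemokine ligands, with bars of ± 1 SE and the range below the fold threshold shaded. 6 ligands lie between 2.54 and 3.51, Ccl6 and Ccl9 lie at -0.70 and 0.53 inside the shaded range, and Ccl24 lies at -3.70.

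Ccl3 had the highest mean level of the ligands in both groups, and the order under it differed. In controls the means ran from Ccl3 (191 FPKM) through Ccl9 (126), Ccl5 (120), Ccl4 (102), Ccl6 (55.4), Ccl2 (46.3), Ccl7 (18.4) and Ccl12 (8.77) to Ccl24 (1.24) and Ccl22 (0.10). In TgAPPswe they ran from Ccl3 (1346) through Ccl5 (1177), Ccl4 (526), Ccl2 (248), Ccl7 (167), Ccl9 (157), Ccl12 (80.5) and Ccl6 (29.5) to Ccl22 (0.237) and Ccl24 (0.07). Among neighbours in this order, the ranges overlapped in controls for Ccl9, Ccl5 and Ccl4 and for Ccl6 and Ccl2, while Ccl3 lay above every value of Ccl9. Ccl5 in control replicate 1 (185.75) exceeded Ccl3 in control replicates 1 and 3, so these ligands overlapped too, although Ccl9 stood between them by its mean. In TgAPPswe they overlapped for Ccl3 and Ccl5, for Ccl7 and Ccl9, and for Ccl22 and Ccl24. By its mean, Ccl9 stood next to Ccl3 in controls and below Ccl3, Ccl5 and Ccl4 in TgAPPswe.

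The libraries within a group were not ordered alike for all ligands. Among controls, replicate 1 was the highest for Ccl2, Ccl7, Ccl12, Ccl5, Ccl6 and Ccl24 and the lowest for Ccl3, Ccl4 and Ccl9, and replicate 2 was the highest for Ccl3, Ccl4 and Ccl9. In TgAPPswe, replicate 1 was the highest for Ccl2, Ccl7, Ccl3, Ccl4, Ccl9 and Ccl24 and replicate 2 the highest for Ccl12, Ccl5 and Ccl6. Ccl3, Ccl4 and Ccl9 thus shared their highest library in each group, and so did Ccl12, Ccl5 and Ccl6. With 3 libraries a group these orders are a description only.

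Summed over the 10 ligands, FPKM was 706.09, 665.75 and 636.47 in controls and 4038.75, 3516.77 and 3637.14 in TgAPPswe. The sum was 5.57 times higher in TgAPPswe (669 ± 35.0 against 3731 ± 273, SD, n = 3; exact permutation p = 0.1). The share of the sum held by Ccl3, Ccl4 and Ccl5 went from 61.6% ± 2.14 to 81.7% ± 0.136, and that of the CCR2 ligands from 10.9% ± 1.32 to 13.3% ± 0.549 (SD, n = 3). The share of Ccl6 and Ccl9 together went from 27.2% ± 3.48 to 4.97% ± 0.411 (SD, n = 3), with no overlap between the groups (exact permutation p = 0.1, the smallest possible). Their summed FPKM ranged over 165 to 200 in controls and 160 to 217 in TgAPPswe, so the level of the pair overlapped while its share did not. With CPM, which does not divide by gene length, the changes in share went the same way and were larger, 34.6 percentage points for Ccl3, Ccl4 and Ccl5 (20.1 from FPKM), 5.99 for the CCR2 ligands (2.35) and -40.4 for Ccl6 and Ccl9 (-22.3).

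Within the group that rose, shares moved unequally. Ccl5 went from 17.8% ± 7.99 to 31.8% ± 4.66 of the sum and Ccl3 from 28.5% ± 3.17 to 35.9% ± 3.84 (SD, n = 3). Ccl4 and Ccl2 rose in level with shares that overlapped between the groups, 15.3% against 14.1% for Ccl4 (exact permutation p = 0.5) and 6.89% against 6.64% for Ccl2 (exact permutation p = 0.7).

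**Figure D3:**
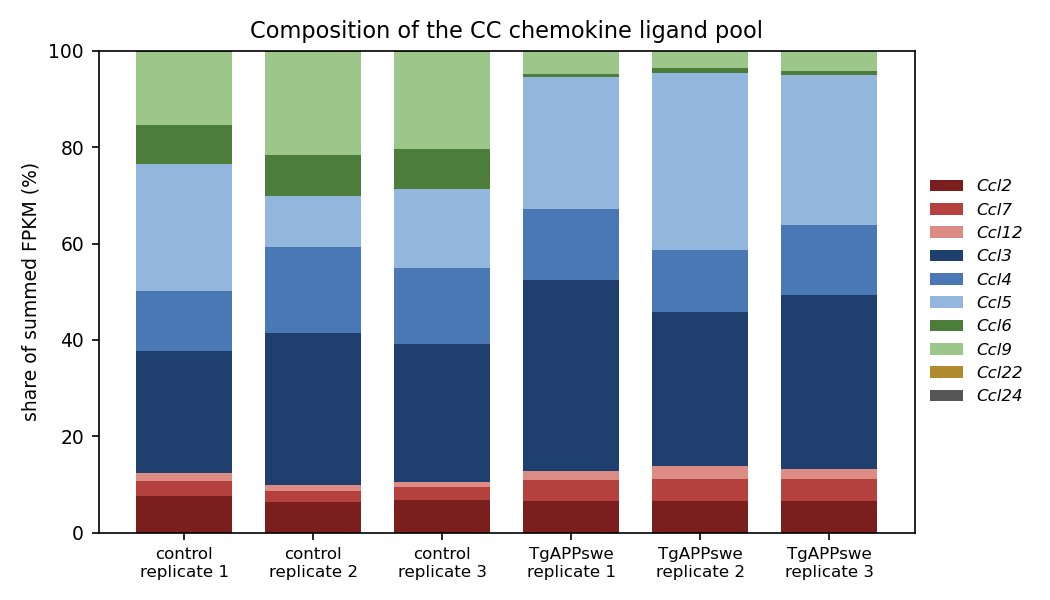
Share (%) of the summed FPKM of the 10 CC chemokine ligands that each ligand held in each library, stacked to 100. Ccl6 and Ccl9 (green) shrink from a mean of 27.2% in controls to 4.97% in TgAPPswe, and Ccl3, Ccl4 and Ccl5 (blue) grow from 61.6% to 81.7%. Ccl22 and Ccl24 are too small to be seen.

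Neighbours on chromosome 11 did not all move together. In the first run Ccl2 and Ccl7, 8.26 kb apart, and Ccl12, 54.3 kb further on, rose by log2 fold changes of 2.64, 3.39 and 3.41. Ccl11 (eotaxin-1), which lies between Ccl7 and Ccl12, held at most 1 counts in each library. Ccl8 (MCP-2), just beyond Ccl12, had a log2 fold change of 1.18 (SE 0.352, edgeR adjusted p = 0.0168), with 49, 20 and 20 counts in controls and 53, 74 and 68 in TgAPPswe. It was called, although its FPKM values overlapped between the groups through control replicate 1. The call was lost in 6 of 15 alternatives (adjusted p 0.000692 to 0.068 over all), among them scaling by library size only (0.97) and leaving out control replicate 2 (0.96), control replicate 3 (0.96) or TgAPPswe replicate 3 (1.15, edgeR adjusted p = 0.053).

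In the second run, Ccl5 and Ccl3 with Ccl4 rose at the ends, and Ccl9 and Ccl6 between them were not called. Ccl9 and Ccl6 are 9.25 kb apart, Ccl5 lies 42.4 kb from Ccl9 and Ccl6 lies 54.8 kb from Ccl3. Outside the run, Taf15, a gene of RNA processing, had a log2 fold change of 0.12 (edgeR adjusted p = 0.209). Heatr9, the gene next to Ccl5, held 1, 0 and 0 counts in controls and 10, 10 and 7 in TgAPPswe, too few to test.

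**Figure D4:**
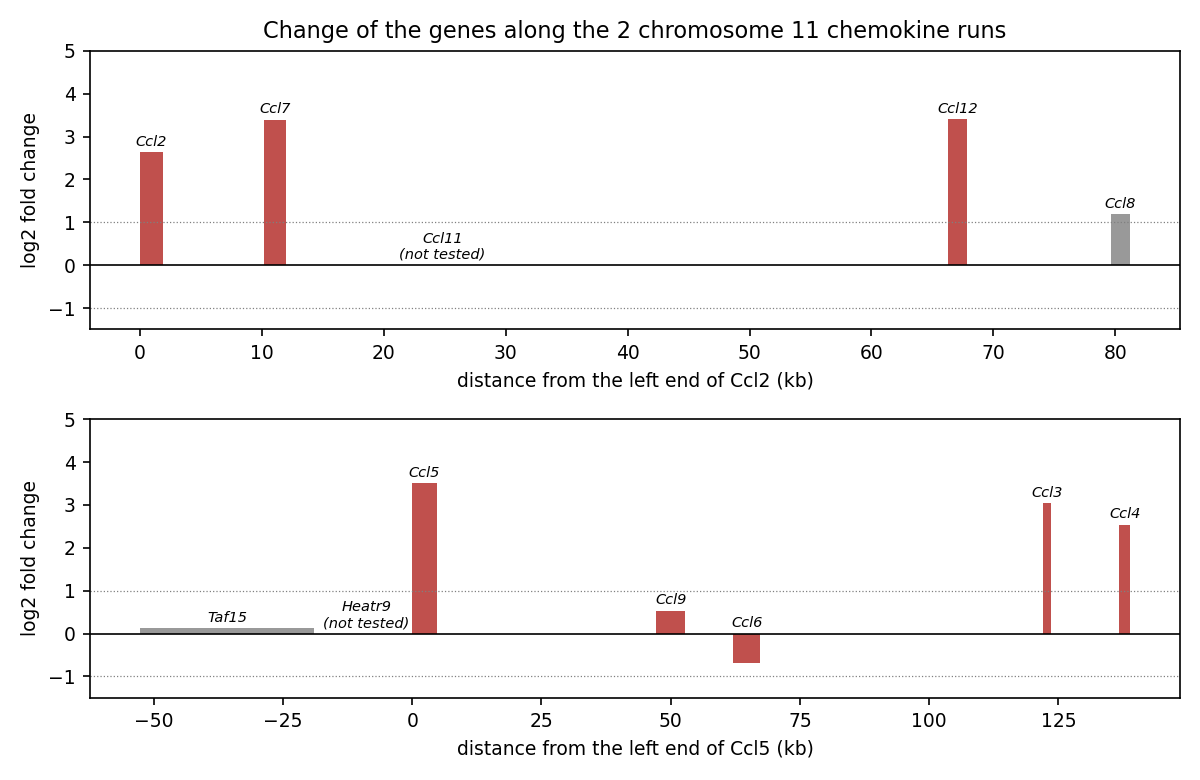
log2 fold change (edgeR) of the genes of the table along the 2 chemokine runs of chromosome 11, against distance in kb from the left end of Ccl2 (top) and of Ccl5 (bottom). Bars of the listed ligands are red and those of other genes grey, drawn at least 1.5 kb wide, with dotted lines at the fold threshold. Ccl9 (0.53) and Ccl6 (-0.70) stand between Ccl5 (3.51) and Ccl3 (3.04).

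Of 11 further CC ligands looked up, 8 were in the table and 3 were tested. Ccl8 was called up, as above, and Ccl27a, a CCR10 ligand, was called down from 5.62 ± 1.35 to 1.40 ± 0.186 FPKM (SD, n = 3; log2 fold change -1.77, edgeR adjusted p = 0.000297), with fractional counts in all 6 libraries, so its level is uncertain. Ccl25 had a log2 fold change of 0.12 (edgeR adjusted p = 0.753). Ccl11, Ccl17, Ccl20 and Ccl28 held at most 3 counts in each library.

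The receptors of these ligands went both ways. Of 9 CC receptors listed, 4 were tested, 2 were called down and 1 called up. Ccr1, a receptor of Ccl3 and Ccl5 and of Ccl6 and Ccl9, stood at 7.76, 6.28 and 6.09 FPKM in controls and 1.71, 2.96 and 2.17 in TgAPPswe, and went from 6.71 ± 0.914 to 2.28 ± 0.632 FPKM (SD, n = 3; log2 fold change -1.35, edgeR adjusted p = 0.000253). Every TgAPPswe library lay below all controls.

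Ccr2, the receptor of Ccl2, Ccl7 and Ccl12, was at 7.82, 3.10 and 5.36 FPKM in controls and 0.47, 3.03 and 1.53 in TgAPPswe, a log2 fold change of -1.48 (SE 0.533, edgeR adjusted p = 0.0369). Control replicate 2 and TgAPPswe replicate 2 nearly met, and the call was lost in 5 of 15 alternatives, without control replicate 1 (-1.13, edgeR adjusted p = 0.123), without control replicate 3 (-1.51, 0.0827), without TgAPPswe replicate 3 (-1.43, 0.106), under the replicate block (-1.55, 0.0854) and with DESeq2 (-1.47, 0.0984), with adjusted p from 0.00451 to 0.123 over them all. Counts of Ccr2 were fractional in all 6 libraries, so its level is uncertain. Ccr3, the eosinophil receptor that Ccl24 binds, was the one called up, at 2.79, 2.61 and 2.43 FPKM in controls and 33.89, 37.31 and 34.37 in TgAPPswe. Its log2 fold change was 3.99 (SE 0.0711, edgeR adjusted p = 7.66e-09). Ccr10 was at 0.577 ± 0.169 and 0.247 ± 0.0737 FPKM (SD, n = 3; log2 fold change -0.99, edgeR adjusted p = 0.0401), just short of the fold threshold, and was called down in 3 of 14 alternatives, with library size only (-1.20), without control replicate 2 (-1.13) and without TgAPPswe replicate 2 (-1.23), with adjusted p from 0.00885 to 0.151 over all 14. The eosinophil marker list had 1 tested gene of 4, Siglecf, which was called up with a log2 fold change of 1.01, and a summed FPKM of 0.50 to 1.19 in controls and 1.14 to 1.64 in TgAPPswe, and Epx, a defining eosinophil enzyme, held at most 3 counts in each library.

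**Figure D5:**
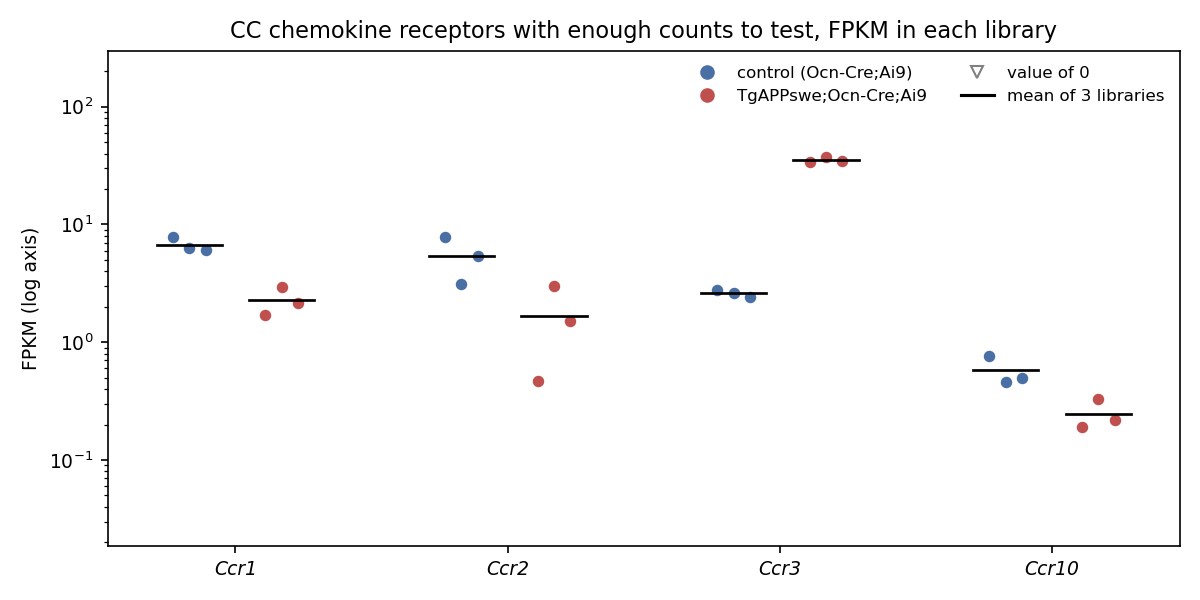
FPKM (log axis) of the 4 CC chemokine receptors tested, in each of the 3 control and 3 TgAPPswe libraries, with black bars at the group means. Ccr3 rises from 2.61 to 35.2 and Ccr1 falls from 6.71 to 2.28.

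The atypical receptors, which take up chemokines without signalling, had 2 tested genes of 5, Ackr4 and Ccrl2, and neither was called (log2 fold changes -0.19 and 0.37). Of 11 genes of signalling below chemokine receptors, all tested, 4 were called up, 2 down and 5 not called. Those that rose were Rac2 (log2 fold change 3.03), a GTPase of leukocyte migration, Pik3r5 (1.75) and Pik3cg (1.28), subunits of the phosphoinositide 3-kinase that these receptors activate, and Gnb1 (1.25), a G protein subunit. Those that fell were Rgs2 (-2.59) and Rgs1 (-1.37), which shorten G protein signals. Gnai2 (0.00) and Arrb2 (0.14), the inhibitory G protein and an arrestin, were not called.

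Among 4 proteases that trim chemokines, Mmp14 (log2 fold change 1.43) and the scarce Dpp4 (1.48, with fractional counts in all 6 libraries and its call lost in 7 of 12 alternatives) rose, Mmp12 (-2.25) fell, and Mmp2 (0.02) was not called. Dpp4 passed the filter on low counts through TgAPPswe alone, so that only a rise could be called for it. Of 7 proteins that bind AU-rich elements, 2 were called, both down. Zfp36l1 went from 159 ± 4.68 to 27.9 ± 1.73 FPKM and Zfp36l2 from 189 ± 7.45 to 46.2 ± 4.23 (SD, n = 3), log2 fold changes of -2.30 and -1.82. Zfp36 itself, at 516 ± 81.3 and 255 ± 16.3 FPKM (SD, n = 3), had a log2 fold change of -0.80 and was not called (it was in 4 of 15 alternatives), nor was Khsrp (0.15). Ccl12, Ccl3 and Ccl4, whose sites are printed above, rose by 3.41, 3.04 and 2.54 on the log2 scale, and Ccl2, Ccl7 and Ccl5, without a site, by 2.64, 3.39 and 3.51, so the log2 fold changes with and without a site overlapped. Whether the binding proteins bear on the ligands was not tested.

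The ligands are known to respond to bacterial endotoxin (Ccl2 to Ccl5, Ccl7 and Ccl12) or to interleukin-4 (Ccl24 and Ccl22). Of 9 other genes known to rise with endotoxin in macrophages, all 9 were called up, among them Ptgs2 (log2 fold change 3.17). With at least 10 counts asked of every library, 6 were tested and 6 called up. Il12b, Il6 and Nos2 passed the filter on low counts through TgAPPswe alone, so that only a rise could be called for them. Il6 held 4, 1 and 5 counts in controls and 488, 176 and 287 in TgAPPswe, a ratio of rates of 98.9 (95% exact counting interval 53.5 to 207), and for Nos2, with 9, 2 and 5 against 183, 152 and 176 counts, it was 33.2 (20.3 to 58.5). Il12b held 0, 0 and 1 counts in controls and 806, 111 and 428 in TgAPPswe, a ratio of rates of 1398 (95% exact counting interval 251 to 55276). Of 8 listed genes of the interleukin-4 response in macrophages, 7 were tested, 4 were called down and 1 was called up. The 4 called down were Mgl2, Irf4 (log2 fold change -2.46, lost in 2 of 15 alternatives, both limma on log2(FPKM + 1), at -0.90), Mrc1 (-2.38) and Clec10a (-2.06). The 1 called up was Il4ra (1.04, lost in 6 of 15 alternatives). Certain genes of this response are not reported here, so these counts do not give its balance. Mgl2, with fractional counts in 5 libraries, had summed counts of 195 in controls and 11 in TgAPPswe, passed the filter through the controls alone, so that only a fall could be called, and was not tested with at least 10 counts asked of every library, where 6 genes of the list were tested, 3 called down and 1 called up. Stat6 (-0.06) and Chil3 (-0.18) were not called. These lists were drawn up with results of these samples known, so their direction is not independent evidence.

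Marker lists of the cell types that a marrow culture could hold were read beside the ligands. Of the 12 macrophage and monocyte markers, 5 were called up (Adgre1, Aif1, Fcgr1, Itgam and Fcer1g), 4 down (Csf1r, Cd68, Mrc1 and Mertk) and 3 not called, and of the 11 tested stromal and osteoblast markers 0 were called. Among the latter, Sp7 (log2 fold change -0.78), Pdgfrb (-0.55) and Alpl (0.57) passed the p threshold without reaching the fold threshold. The 4 tested neutrophil markers were not called either. Among platelet markers Pf4, itself a CXC chemokine, held nearly all of the summed FPKM and was called down, from 565 ± 60.5 to 184 ± 75.6 FPKM (SD, n = 3), while Gp9 was at 0.227 ± 0.103 and 0.56 ± 0.184 and was not tested. Among dendritic cell markers Itgax held nearly all of the sum, at 28.7 ± 12.6 and 12.6 ± 5.25 FPKM (SD, n = 3), with overlapping groups, fractional counts in 6 libraries and no call, and the scarce Xcr1, also fractional in 6, was called up. Of 4 endothelial markers, all tested, Pecam1 was called up (log2 fold change 1.03, edgeR adjusted p = 0.000116) and 3 were not called, among them Kdr, just short of the fold threshold the other way (-0.97, edgeR adjusted p = 0.00113), with a summed FPKM of 3.82 to 5.89 in controls and 5.11 to 5.98 in TgAPPswe. B cell markers and those of mast cells and basophils could not be tested. The part of these cell types in the ligand changes was not tested.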

How the data were processed

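RNA of tdTomato-positive cells sorted from cultured marrow was sequenced on a DNBSEQ instrument, in 3 control and 3 TgAPPswe libraries. The submitters' processing notes name HISAT2 2.0.4, Bowtie2 2.2.5, RSEM 1.2.12, DESeq2 1.4.5 and the build mm10. The authors deposited estimated counts per gene, whole for most genes and fractional for 13.3 to 14.4% of genes in a library, and FPKM to 2 decimals, which scale counts by gene length and library depth. A second deposited table repeated the FPKM for 15656 genes beside the authors' fold changes and p-values, which were not used.

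Estimated counts were rounded and tested in edgeR 4.0.16 (R 4.3.3; filterByExpr, TMM scaling, quasi-likelihood test, no block), with limma 3.58.1 and DESeq2 1.42.0 as alternatives.  FPKM served for levels and shares, and exact permutation tests were two-sided. The procedure was tested on simulated data. The members and lists were chosen with earlier results of these data known. Named genes were every ligand, App, and from each list up to 4 genes called in each direction by size of change and up to 2 not called by level; Taf15, Heatr9, Ccl11 and marker genes were named in addition. Intervals cover counting error only. Certain genes and motifs are not reported here. Positions and UTRs came from GENCODE M21 and promoters from RefSeq. Alternatives were other normalisations, filters, pseudocounts and tests, a replicate block and leaving out each library.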

Additional observations from a re-analysis of the deposited data

How the results depend on the processing

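The 6 ligands called up, Ccl2, Ccl7, Ccl12, Ccl3, Ccl4 and Ccl5, were each called up in all 15 alternatives tried, and none of the 9 tested ligands changed direction in an alternative that tested it. Ccl24 was called down in the 14 alternatives that could test it. With at least 10 counts asked of every library it was not tested, and 0 ligands were called down. Without the fold threshold 2 ligands were called down, 4122 genes were called up and 4007 called down. limma on log2(FPKM + 1) called 593 genes up, and 589 with no filter on low counts. With CPM in place of FPKM, which does not divide by gene length, the change in share was 34.55 percentage points for Ccl3, Ccl4 and Ccl5 (20.1 from FPKM), 5.988 for the CCR2 ligands (2.35) and -40.37 for Ccl6 and Ccl9 (-22.3).

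Scaling by library size only moved the median log2 fold change of all genes from -0.02 to -0.23, and no call of the 9 tested ligands changed with it. The adjusted p of Ccl9 was 0.204 in limma on log2(FPKM + 1) with no filter. The replicate block gave 6 ligands called up and 1 called down, and 1115 and 1147 genes. The deviations of same-numbered libraries correlated at 0.0127, 0.00664 and 0.141, so the numbers were not taken to pair the libraries. Under the block the adjusted p of Ccl9 was 0.0563. Low counts limit Ccl22 and Ccl24, and 3 libraries a group limit every permutation test to a p of 0.1.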
